A study of Mus musculus with 6 samples.

Results

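Complement was examined as a set of 35 genes for components, receptors and regulators, taken by gene symbol from a fixed list, out of 28043 genes in the tables. All 35 symbols had a row. The RNA was that of primary mouse RPE cells, the retinal pigment epithelium being the pigmented layer behind the photoreceptors, and the labels give eye as the tissue. The Normal group was cells of normal mice and the PVR group was cells of mice with proliferative vitreoretinopathy, a scarring disease of the injured eye, and each had 3 libraries. The series title speaks of traumatic PVR. The sources used here do not state strain, sex, age, time after injury or the number of mice behind a library. Nothing says that the libraries of a group came from separate animals, so p-values cover only the library-to-library spread, part or all of which may be technical.

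Complement is a cascade of secreted proteases and binding proteins that marks cells and debris for removal. The classical route starts when C1q, a hexamer of trimers built from the C1qa, C1qb and C1qc chains, binds a surface and activates the proteases C1r and C1s, which cleave C4 and C2. The lectin route reaches C4 and C2 through the MASP proteases, and the alternative route amplifies cleaved C3 with factor B, factor D and properdin. All routes meet at C3 and can end in a membrane pore of C5 to C9, while membrane-bound and soluble regulators hold them in check. In the eye, RPE cells are a known source of complement regulators, and microglia and macrophages are known for C1q.

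Values are normalised read counts, that is, reads per gene divided by a size factor of the library. Libraries held 15269983 to 19173187 gene-assigned reads. A floor was set at 3 reads, since a gene with a few expected reads can still give a count of 0. It corresponds to 2.72 to 3.42 normalised counts. That floor covers counting error only. Log2 changes subtract the Normal mean from the PVR mean of log2(normalised count + 1), a scale that understates changes of genes with few reads, and ± is the SD of 3 libraries. RPE identity was plain in both groups, with Rpe65 at 82848 to 89000 in Normal and 28403 to 38343 in PVR. Of 10 RPE markers, 5 were lower in PVR (limma). Macrophage transcripts moved the other way. Of 20 macrophage and microglia markers, none of them a complement gene studied here, 19 were higher and 1 lower. With the replicate number as a block, Cd68 was not called (limma adjusted p = 0.0519). The median marker level was 42.3, 35.7 and 23.6 in the Normal libraries, in replicate order, and 899, 1172 and 458 in the PVR libraries. None of the 20 was at 0 in all Normal libraries, but Aif1, Cx3cr1, Fcgr1, Fcgr3 and P2ry12 had enough reads for a test only through the PVR libraries. Their summed level was 10734 to 12194 in Normal and 37179 to 89849 in PVR, but most of the Normal sum was Csf1r (9343 to 11181), the marker that was lower. Without Csf1r the sums were 1012 to 2128 and 28944 to 82274. PVR replicate 3 thus held the fewest macrophage transcripts of the PVR libraries. Normal replicate 2 stood apart by photoreceptor markers, which summed to 1093 there against 172 and 461 in the other Normal libraries. Of 8 fibroblast and stromal markers 6 were higher in PVR, with sums of 1491 to 2926 in Normal and 5362 to 7807 in PVR. All 3 neutrophil markers with enough reads, S100a8, S100a9 and Csf3r, were higher. S100a8 (3, 0 and 0 Normal reads) and S100a9 (6, 3 and 1) had enough reads only through the PVR libraries. Csf3r (17, 20 and 8) also needed the PVR libraries, so a difference was built into all 3 being tested. The neutrophil list summed to 9.06 to 34.0 in Normal and 203 to 449 in PVR. Most of the PVR sums was Csf3r (250.2, 389.5 and 150.2 in replicate order). The other neutrophil markers with a row had 0 to 10 reads per library and were not tested. Of these, Mpo, Elane and Camp had reads in both groups. Cxcr2 (10, 6 and 2 PVR reads), Retnlg (10, 2 and 0) and Ngp (2, 0 and 6) were at 0 in all Normal libraries. In bulk RNA such as this, fewer cells of a type and less RNA per cell cannot be told apart.

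Most complement genes with enough reads were higher in PVR. Reads sufficed for a test in 25 of the 35 genes. Of these 19 rose, 0 fell and 6 did not pass (limma, Benjamini-Hochberg adjusted p under 0.05 over all 15766 genes tested). Across all tested genes 17.9% rose and 12.9% fell, 30.8% in either direction. The quasi-likelihood test of edgeR and DESeq2 each also called 19 higher and 0 lower, where 17.5% and 18.3% of all genes were higher and 12.3% lower by either tool. Tested against a change of 1.5-fold instead of 0, 14 members were higher and 0 lower, against 7.81% and 1.58% of all genes. No member had an unadjusted p under 0.05 in the lower direction (0 of 25). The median log2 change was 1.88 over the 25 genes and -0.02 over all tested genes. The 3 PVR values lay wholly above the 3 Normal values for the same number of tested members, 19, as they did for 24.7% of all tested genes, and wholly below for 0 members, against 23.3%. Masp1, C5ar2, Cfi and Cd55 had enough reads only through the PVR libraries, so a difference was built into their being tested. By arm, 8 of 9 classical genes, 1 of 1 tested lectin gene, C3, 1 of 1 tested alternative gene, 4 of 4 tested receptors and 4 of 7 tested regulators rose. Neither of the tested terminal genes, C7 and C8g, was called. A fit on 4 libraries, omitting Normal replicate 2 and PVR replicate 3, was added once the data had been seen and called 17 of 25 higher, where 17.1% of all genes were higher and 9.92% lower.

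**Figure D1:**
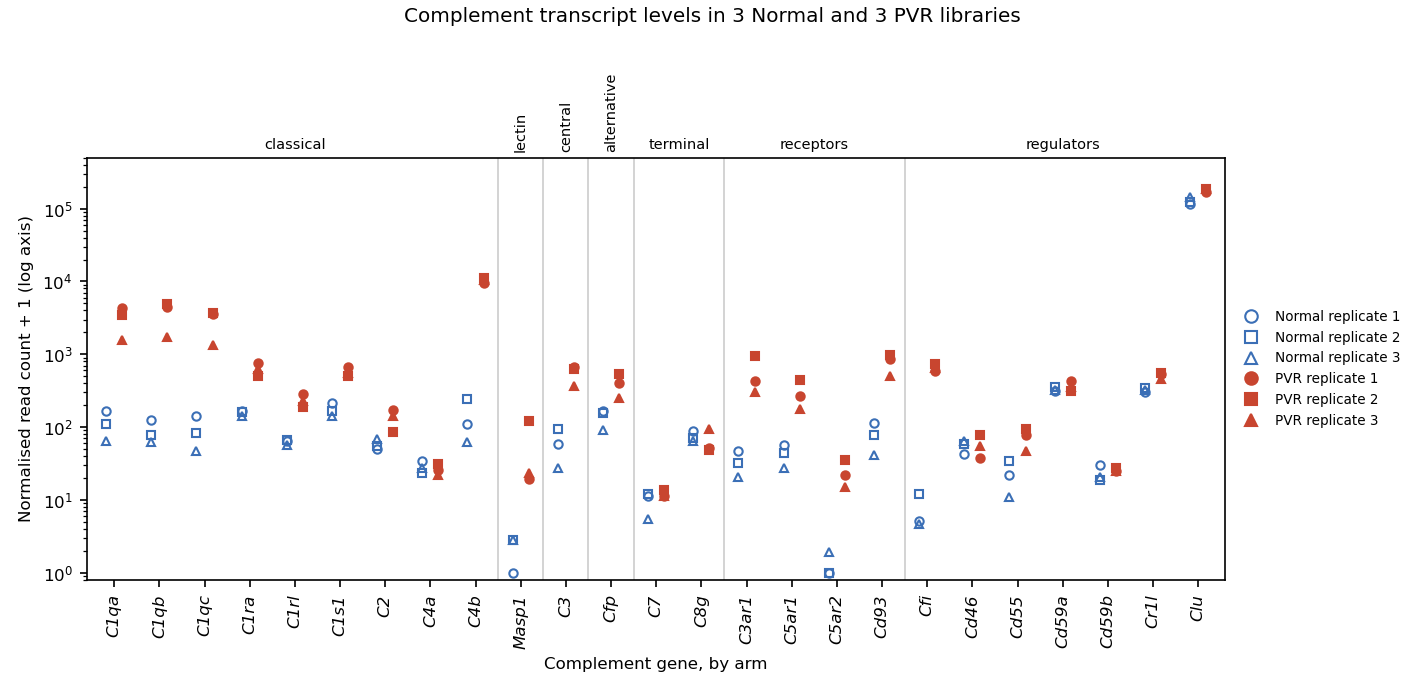
Normalised read count plus 1 (log axis) of the 25 tested complement genes in each library, open blue symbols for Normal and filled red for PVR, ordered by arm. C4b and the C1q chains show the widest gaps among abundant genes, whereas C4a, C7, C8g, Cd46, Cd59a and Cd59b overlap between groups.

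**Figure D2:**
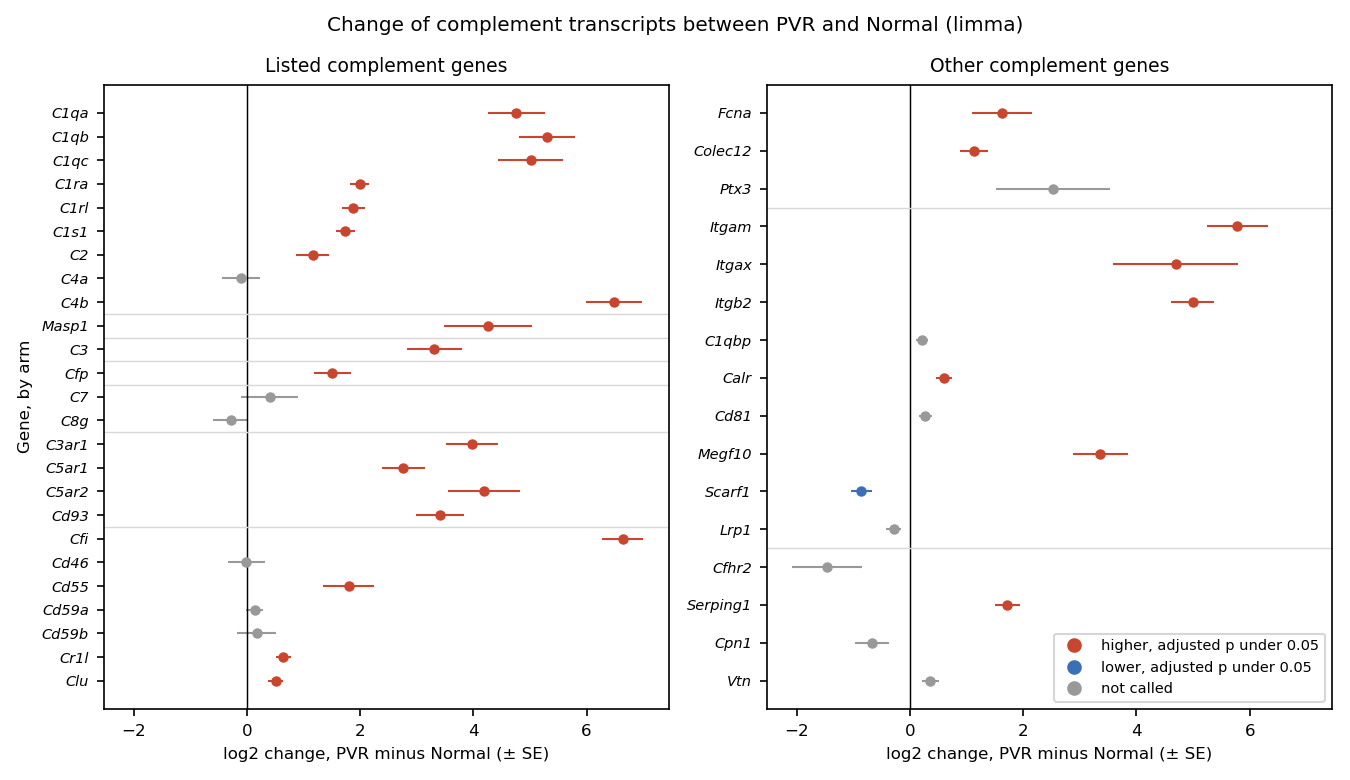
Log2 change (PVR minus Normal) with its standard error from limma for the tested complement genes, the 25 members on the left and other genes of the pathway on the right, 1 of which is not drawn, coloured by call. Members reach from -0.29 (C8g) to 6.64 (Cfi), and the right panel holds a called fall for Scarf1.

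The DNA just before the start sites is shown for 4 of the rising genes, taken from RefSeq on GRCm38.p6. Each stretch ends at the annotated start or before the nearest annotated exon, runs 5′ to 3′ on the gene's strand, and has capitals where a searched motif matched.
C1qb, chr4:136886201-136886450, minus strand: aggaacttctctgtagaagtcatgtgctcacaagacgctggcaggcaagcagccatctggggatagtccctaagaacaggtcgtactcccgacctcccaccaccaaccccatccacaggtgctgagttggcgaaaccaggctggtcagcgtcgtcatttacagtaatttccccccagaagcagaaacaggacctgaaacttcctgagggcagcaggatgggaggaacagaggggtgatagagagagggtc
C1qc, chr4:136893066-136893164, minus strand: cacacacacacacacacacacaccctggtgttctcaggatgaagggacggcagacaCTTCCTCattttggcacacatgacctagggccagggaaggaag
C3, chr17:57228137-57228386, minus strand: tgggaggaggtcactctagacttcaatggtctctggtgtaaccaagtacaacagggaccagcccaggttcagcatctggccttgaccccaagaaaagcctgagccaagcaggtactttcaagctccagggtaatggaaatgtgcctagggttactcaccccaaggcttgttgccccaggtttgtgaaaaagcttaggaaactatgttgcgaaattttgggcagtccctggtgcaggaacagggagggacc
C3ar1, chr6:122856162-122856407, minus strand: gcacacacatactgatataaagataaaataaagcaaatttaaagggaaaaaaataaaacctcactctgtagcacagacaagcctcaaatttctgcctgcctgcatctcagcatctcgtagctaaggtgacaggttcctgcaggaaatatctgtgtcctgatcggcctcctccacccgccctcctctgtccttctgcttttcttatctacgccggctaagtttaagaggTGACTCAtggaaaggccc
The motifs searched on both strands were the STAT site GAS (TTCNNNGAA), the interferon element ISRE, a PU.1 site (GAGGAAG), an AP-1 site (TGANTCA) and the NF-kB consensus. C1qc held a PU.1 match beginning 194 bases before its RefSeq start, read from the minus strand of the printed sequence. The printed C1qc stretch stops short of that start, at an annotated C1qc exon that reaches farther upstream. C3ar1 held an AP-1 match beginning 22 bases before its RefSeq start. C1qb and C3 held none of the motifs in these windows. Over the full 250 bases, 2 of 25 members with an entry held the PU.1 letters, 2 AP-1, 2 GAS, 1 ISRE and 1 NF-kB. Among all 32851 windows of that length the shares were 10.6%, 6.75%, 7.02%, 2.98% and 7.25%. Such a match is a description of the letters and no evidence of a factor at the site.

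The 3 chains of C1q rose together. Their genes are neighbours on chromosome 4 (C1qb from 136880129, C1qc from 136889804 and C1qa from 136895917, GRCm38). In replicate order, C1qa measured 167, 108 and 64.3 normalised counts in the Normal libraries and 4279, 3507 and 1576 in the PVR libraries. C1qb measured 125, 77.8 and 61.6 in Normal and 4440.1, 4923 and 1729 in PVR. C1qc measured 139, 80.6 and 45.3 in Normal and 3585, 3662 and 1349 in PVR. For every chain the groups were far apart, Normal replicate 3 was the lowest Normal library and PVR replicate 3 the lowest PVR library. The log2 changes were 4.76 (SE 0.51, limma adjusted p = 0.00186), 5.30 (SE 0.49, limma adjusted p = 0.0011) and 5.01 (SE 0.58, limma adjusted p = 0.00231). The C1qa count was 1.04 to 1.39 times that of C1qb in Normal libraries and 0.712 to 0.964 times in PVR libraries, ranges that did not overlap. The C1qc count was 0.735 to 1.12 times that of C1qb in Normal and 0.744 to 0.808 times in PVR, and these ranges overlapped. The median macrophage marker was likewise lowest in replicate 3 of each group. The 3 chains summed to 7.05 to 7.59 times the count of Tyrobp, a myeloid adaptor gene, in the PVR libraries and 7.56 to 16.9 times in Normal. Relative to Ptprc, the gene of the leukocyte antigen CD45, they summed to 13.5 to 19.0 times in PVR and 6.55 to 12.3 times in Normal. The part of macrophage transcripts in the rise of C1q was not tested.

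C4b, the mouse gene for the complement component C4, had the second largest log2 change of the set (chromosome 17, 34728380 to 34743882). Its levels were 109, 239 and 60.7 in Normal and 9656, 11259.8 and 10619 in PVR. The PVR libraries lay close together, and Normal replicate 2 was the highest of its group. The mean rose 77.1-fold, 136 ± 92.1 against 10511 ± 807 (limma adjusted p = 0.000634, log2 change 6.48, SE 0.50). Without Normal replicate 2 the fold was 124 and the log2 change 6.99. Unlike C1q, C4b in PVR replicate 3 was 1.02 times the mean of PVR replicates 1 and 2. Its near copy C4a, known in mice as the gene of the sex-limited protein (34809092 to 34823464 on the same chromosome), was not called. C4a measured 33.0, 22.2 and 26.3 in Normal and 24.7, 29.6 and 20.8 in PVR, so the groups overlapped (log2 change -0.11, limma adjusted p = 0.835). The sign of that change turned without Normal replicate 1 (0.035) or PVR replicate 3 (0.012). C4b was 2.31 to 10.8 times C4a in Normal libraries and 380.2 to 511 times in PVR libraries. Of the 50-base stretches in annotated C4b transcripts, 34.6% also occur in transcripts of C4a, so reads from those stretches cannot be assigned to either gene alone, and the level of each is uncertain to that extent.

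The proteases that follow C1q rose by smaller and more even amounts. C1ra, the C1r gene, measured 165, 161 and 139.6 in Normal and 756, 498 and 621 in PVR (log2 change 1.99, SE 0.17, limma adjusted p = 7.18e-05). C1s1, the C1s gene, measured 211, 165 and 142 in Normal and 661, 506 and 554 in PVR (log2 change 1.74, SE 0.17). C1rl, which encodes a C1r-like protease, measured 62.9, 65.8 and 56.2 in Normal and 285, 189 and 225 in PVR (log2 change 1.88, SE 0.21). The 3 genes are neighbours on chromosome 6 (C1rl from 124493113, C1ra from 124512405 and C1s1 from 124530345), and in none did the groups overlap. PVR replicate 1 was the highest library for each and PVR replicate 2 the lowest, an order that differs from that of C1q. The C1s1 count was 0.875 to 1.02 of the C1ra count in PVR and 1.02 to 1.28 of it in Normal. C2, whose product is the protease of the classical C3 convertase, measured 48.4, 54.6 and 67.1 in Normal and 168, 85.4 and 143 in PVR (log2 change 1.16, SE 0.29, limma adjusted p = 0.0129). C2 did not keep its call when Normal replicate 1 or PVR replicate 1 was omitted (limma adjusted p of 0.0521 and 0.0523). The same held when replicate 3 of both groups was omitted (limma adjusted p = 0.0564) and in the 4 libraries without Normal replicate 2 and PVR replicate 3 (limma adjusted p = 0.0665). Copies blur some of these values, since 50.8% of the 50-base stretches of C1ra recur in other genes, mainly C1rb, and 21.8% of those of C1s1 in C1s2. C1rb itself had 0 to 3 reads per library and C1s2 0 to 6. In C2, 38.7% recur in Gm20547, an annotated transcript unit that spans C2 and Cfb.

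The lectin proteases were scarce. Masp1, which encodes the initiating MASP protease, had 0, 2 and 2 Normal reads and 18, 106 and 24 PVR reads. PVR replicate 2 held most of them, and without that library the log2 change of 4.26 (SE 0.78, limma adjusted p = 0.00291) was 3.43 (limma adjusted p = 0.0155). The fold of the means was 44.2 with that library and 16.9 without it. From summed reads the PVR level was 40.1 times the Normal level (95% exact interval 15.3 to 149, counting error only). Masp2, the gene of the C4- and C2-cleaving MASP, had 5 to 10 reads in every library and was not tested. Of its exon bases, 54.9% overlap Tardbp on the opposite strand. Its levels were 10.3, 7.41 and 4.53 in Normal and 9.27, 6.83 and 4.72 in PVR, so the groups overlapped.

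C3, the component at which the routes meet, measured 57.7, 94.5 and 26.3 in Normal and 661, 628 and 361 in PVR (log2 change 3.31, SE 0.48, limma adjusted p = 0.00302). The groups did not overlap, and the highest Normal library was replicate 2. Omitting Normal replicate 2 and PVR replicate 3 gave a log2 change of 4.01. Mean levels were 59.5 ± 34.1 and 549.8 ± 165, a 9.24-fold difference. Per length of exons, C4b was 1.71 to 2.28 times C3 in Normal libraries and 13.2 to 26.6 times C3 in PVR libraries, so the ranges of that ratio did not overlap. Of the alternative route, Cfp, the gene of properdin, which stabilises the alternative C3 convertase, was the only member with enough reads. Cfp measured 163, 154 and 88.8 in Normal and 398, 534 and 247 in PVR (log2 change 1.51, SE 0.33, limma adjusted p = 0.011). The proteases of that route were close to the floor in both groups. Cfb, for factor B, had 4, 9 and 4 reads in Normal and 7, 2 and 6 in PVR, a ratio of 0.957 (95% exact interval 0.445 to 2.04). Cfd, for factor D, which is also called adipsin, had 11, 0 and 1 reads in Normal and 2, 0 and 2 in PVR. Adipocyte markers, with which factor D is known to be shared, summed to 20.8 to 37.1 in Normal and 7.97 to 11.3 in PVR. At this depth no difference in Cfb or Cfd was detectable. The Cfb count carries a limit of its own, because 73.0% of its 50-base stretches recur in Gm20547.

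Of the 5 listed genes of the membrane pore, only C7 and C8g had enough reads for a test. C8g, which encodes the gamma chain of C8, measured 88.6, 70.4 and 63.4 in Normal and 50.5, 46.7 and 91.6 in PVR. PVR replicate 3 was the highest of the 6 libraries and the other PVR libraries the lowest, so the groups overlapped (log2 change -0.29, SE 0.31, limma adjusted p = 0.519). C7 measured 10.3, 11.1 and 4.53 in Normal and 10.3, 12.5 and 10.4 in PVR (log2 change 0.40, SE 0.50, limma adjusted p = 0.582). Hc, the mouse gene for C5, had 1, 4 and 9 reads in Normal and 5, 3 and 1 in PVR. C6 had 0 to 2 reads per library. C9, which polymerises to form the pore, had 0 reads in each Normal library and 1 read in each PVR library. None of these 3 was tested. The chains C8a and C8b, outside the list, had 0 to 2 reads in any library.

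All 4 receptors with enough reads rose. C3ar1, the receptor for the C3a fragment, measured 46.4, 31.5 and 19.9 in Normal and 428, 931 and 306 in PVR (log2 change 3.97, SE 0.46, limma adjusted p = 0.000794). Its means differed 17.0-fold, or 11.3-fold without PVR replicate 2. C5ar1, the main receptor for C5a, measured 55.7, 42.6 and 26.3 in Normal and 269.8, 436 and 177 in PVR (log2 change 2.76, SE 0.38, limma adjusted p = 0.000912). Cd93, once described as a C1q receptor and known from myeloid and endothelial cells, measured 111, 75.9 and 39.9 in Normal and 872, 967 and 499.6 in PVR (log2 change 3.41, SE 0.42). In all 3 genes Normal replicate 1 was the highest Normal library, PVR replicate 2 the highest PVR library and PVR replicate 3 the lowest, which is also the order of the median macrophage marker level. C5ar2, the second C5a receptor, had 0, 0 and 1 reads in Normal and 20, 30 and 15 in PVR. That single Normal read gives a ratio of 70.5 with an interval of 12.2 to 2826 (95% exact, counting error only), so its size is poorly known, and the fold of the means moved from 76.1 to 50.7 without Normal replicate 1 or 2. The C5ar2 log2 change of 4.19 (limma adjusted p = 0.0011) became 4.78 with replicate 3 of both groups left out. C3ar1 was 0.773 to 1.32 times Ptprc in Normal libraries and 0.661 to 1.04 times Ptprc in PVR libraries, and these ranges overlapped. Against the median macrophage marker it was 0.846 to 1.1 times in Normal and 0.477 to 0.794 times in PVR, without overlap. Endothelial markers summed to 170.4 to 643 in Normal and 417 to 569 in PVR, with overlapping groups. Vsig4, the C3b receptor of resident macrophages, had 0 to 2 reads in every library. Cr2, the complement receptor of B cells, had 5, 10 and 7 reads in Normal and 2, 14 and 1 in PVR, and the B cell markers Cd79b and Ms4a1 were at 0 in all Normal libraries.

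Among the regulators, Cfi stood out. It encodes factor I, the protease that cuts C3b and C4b into inactive forms (chromosome 3, 129835884 to 129875332). Cfi had 4, 12 and 4 Normal reads and 577, 651 and 685 PVR reads, or 4.12, 11.1 and 3.63 against 594, 741 and 647 normalised counts. PVR libraries lay within a narrow range, as they did for C4b. The log2 change of 6.64 (SE 0.36, limma adjusted p = 1.02e-05) was the highest of the set. The means differed 105-fold, or 171-fold without Normal replicate 2, and the ratio of summed reads was 104 (95% exact interval 67.0 to 170.2, counting error only). In PVR replicate 3, Cfi was 0.969 times the mean of PVR replicates 1 and 2.

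The membrane-bound regulators changed less. Cd55, for decay-accelerating factor, measured 20.6, 33.3 and 9.97 in Normal and 76.2, 93.4 and 46.3 in PVR (log2 change 1.80, SE 0.45, limma adjusted p = 0.014). The Cd55 call was lost without PVR replicate 2 (limma adjusted p = 0.0581), and its change was 2.47 in the 4 libraries without Normal replicate 2 and PVR replicate 3. Cr1l, the gene of Crry, the broad membrane regulator of rodents, measured 306, 341 and 324 in Normal and 527, 546 and 449 in PVR (log2 change 0.64, SE 0.13, limma adjusted p = 0.00397). Cd59a, which encodes the main mouse inhibitor of the membrane pore, measured 314, 356 and 319.9 in Normal and 430.4, 313 and 354 in PVR, with overlapping groups (log2 change 0.14, SE 0.15, limma adjusted p = 0.513). Its copy Cd59b stayed between 17.6 and 28.9 in all 6 libraries (limma adjusted p = 0.748), and 14.1% of its 50-base stretches recur in other genes. Cd46, a cofactor for factor I, ranged from 41.2 to 64.3 in Normal and from 37.1 to 76.3 in PVR (log2 change -0.01, limma adjusted p = 0.99). The sign for Cd46 was not stable, with changes of 0.022 in edgeR and 0.027 in DESeq2. C4bp, for the soluble cofactor C4b-binding protein, had 0 to 3 reads per library, and Csmd1, a large neuronal complement regulator, had 0 to 6, of which 6 were in Normal replicate 2.

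Clu, which encodes clusterin, a secreted chaperone that also blocks the membrane pore, was by far the most abundant member (chromosome 14, 65968483 to 65981547). It measured 115259.8, 122071 and 145019 in Normal and 171332, 185000 and 186130.2 in PVR (log2 change 0.51, SE 0.13, limma adjusted p = 0.0133). The groups did not overlap, though the difference is 1.42-fold. Omitting Normal replicate 1 or Normal replicate 2 ended the call for Clu (limma adjusted p of 0.0522 and 0.0564), as did omitting Normal replicate 2 together with PVR replicate 3 (limma adjusted p = 0.119). Clu alone made up 98.0% to 98.8% of the normalised counts of all members in Normal and 85.8% to 90.2% in PVR.

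The rest of the set changed in amount and in make-up. Without Clu the members summed to normalised counts of 2346, 2312 and 1702 in Normal and 28303, 30199.5 and 20156 in PVR. As a share of the library this was 0.00979% to 0.0146% in Normal and 0.12% to 0.174% in PVR. C4b supplied 3.57% to 10.3% of that sum in Normal and 34.1%, 37.3% and 52.7% in PVR replicates 1 to 3. The C1q chains supplied 10.1% to 18.4% in Normal and 43.5%, 40.0% and 23.1% in PVR replicates 1 to 3. The smaller total of PVR replicate 3 therefore came with a smaller C1q share and a larger C4b share.

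**Figure D3:**
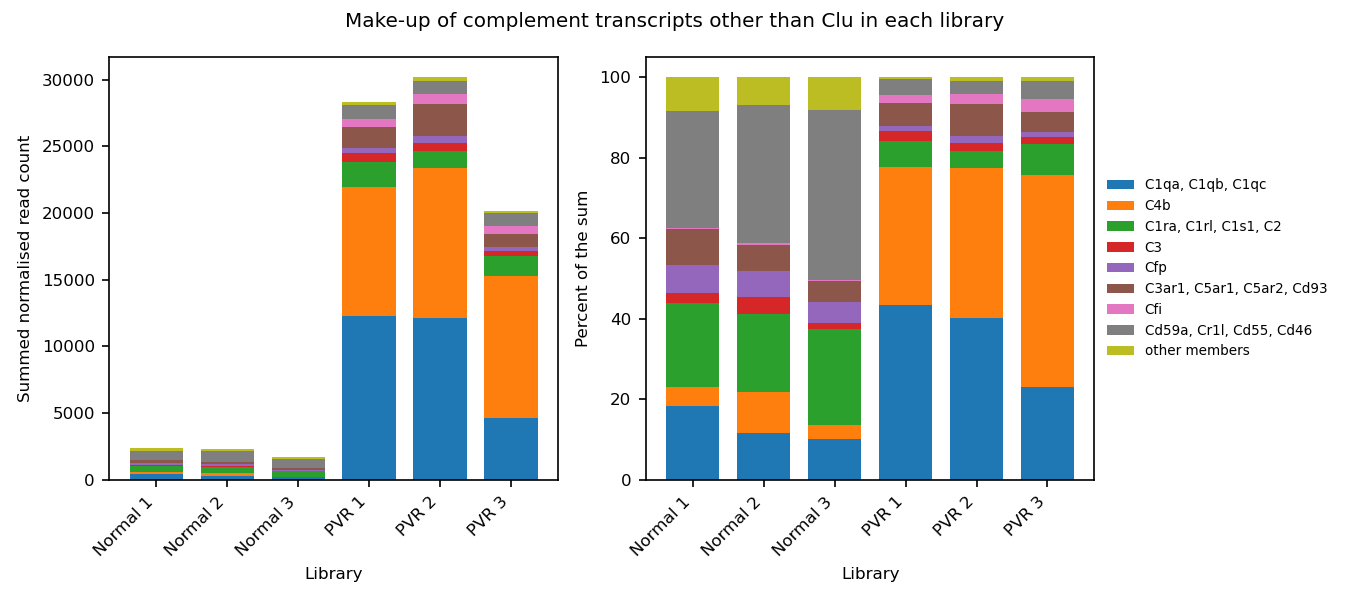
Left, summed normalised read counts of the 34 members other than Clu in each library, stacked by gene set. Right, the same as percent of the sum, where C4b and the C1q chains together make up most of each PVR bar and a smaller share of the Normal bars.

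Levels of different genes were compared per kilobase of annotated exons. By the union of exons, the order in Normal libraries began with Clu at 37082 ± 4536 per kilobase, then Cd59a at 182 ± 12.4, C1qa at 109 ± 49.5 and C1qb at 80.9 ± 30.1. C1qa and C1qb lie within each other's spread, as do C1qb and Cfp (77.8 ± 23.3). C1s1 (55.2 ± 11.2), C1ra (52.1 ± 4.59), C8g (49.7 ± 8.72) and C1qc (45.7 ± 24.5) followed and were not separated beyond their spread. In PVR libraries Clu (52610 ± 2397) was followed by C1qb (3398 ± 1582), C1qa (3001 ± 1339), C4b (1846 ± 142) and C1qc (1484 ± 680.5), and neighbours from C1qb to C1qc were within their spread. Cfi came next at 298 ± 33.6. With the longest transcript as length the order changed. In Normal, Cr1l moved from 31.3 to 83.9 and Cfp stood at 82.6, both past C1qb, and in PVR C1qc (2382) passed C4b (1954). Clu was 99901 in PVR by that length, and 13 of 50 such levels moved by more than 1 SD.

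**Figure D4:**
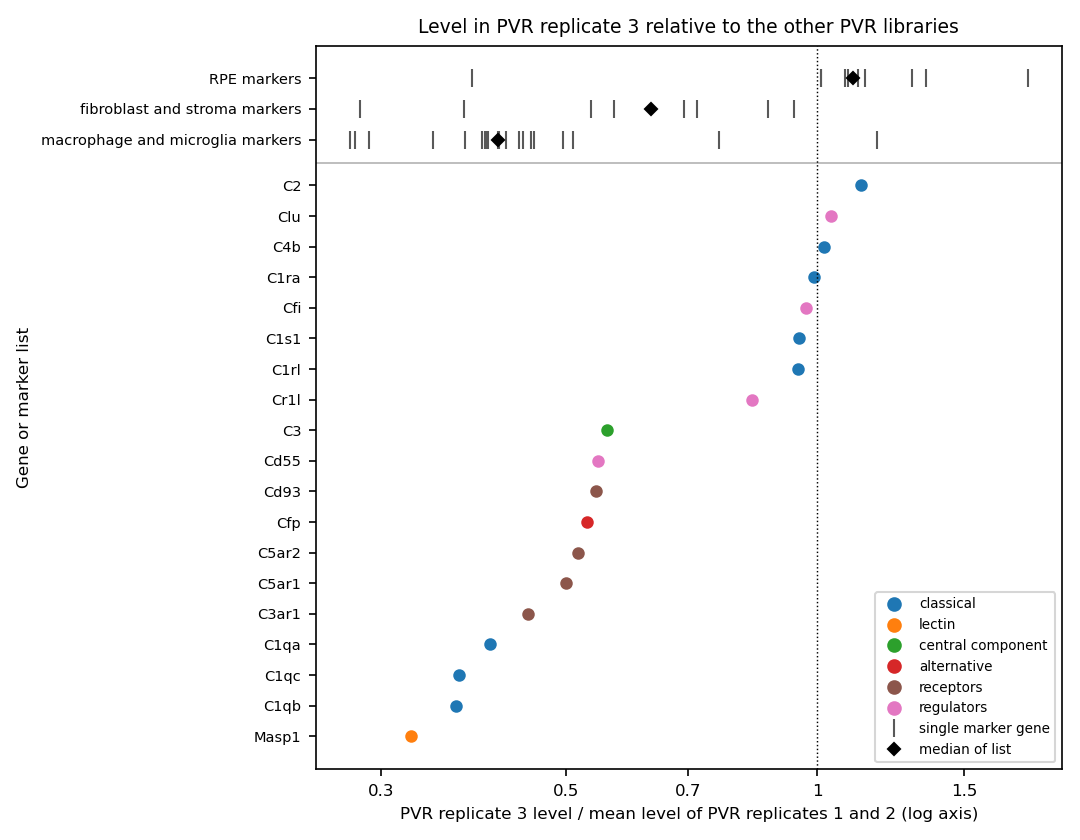
Level in PVR replicate 3 divided by the mean of PVR replicates 1 and 2 (log axis) for the 19 complement genes called higher, with single macrophage, fibroblast and RPE markers (ticks) and their medians (diamonds) above. The C1q chains and receptors lie left of 0.56 with most macrophage markers, and C4b, Cfi, C1ra, C1s1, C1rl, C2 and Clu lie near 1.

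The rising genes differed in their level in PVR replicate 3, as the plot of that library's relative levels shows. This is a description of 3 libraries and has no test. The 19 macrophage markers other than Csf1r stood at 0.275 to 0.762 times the mean of PVR replicates 1 and 2 there, with a median of 0.414. Neutrophil markers stood at 0.468 to 0.562. Masp1 stood at 0.326, the C1q chains at 0.369 to 0.405, C3ar1 at 0.45, C5ar1 at 0.50, C5ar2 at 0.517, Cfp at 0.529, Cd93 at 0.543, Cd55 at 0.546 and C3 at 0.56. Cr1l lay in between at 0.836. C4b (1.02), Cfi (0.969), C1ra (0.992), C1s1 (0.95), C1rl (0.948), C2 (1.13) and Clu (1.04) were at about the level of the other PVR libraries. Fibroblast and stromal markers stood at 0.283 to 0.938 with a median of 0.632, a range that also held the ratios from Masp1 to C3. RPE markers stood at 0.385 to 1.79 with a median of 1.10.

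Set against the median macrophage marker in each library, the members also diverged. C1qa stood at 2.73 to 3.95 times that median in Normal and 2.99 to 4.76 times in PVR, so its ranges overlapped, as did those of C1qc (1.92 to 3.29 and 2.95 to 3.99). C1qb stood at 2.18 to 2.95 times in Normal and 3.78 to 4.94 times in PVR. C4b stood at 2.58 to 6.70 times in Normal and 9.61 to 23.2 times in PVR, and Cfi at 0.0976 to 0.312 times in Normal and 0.633 to 1.41 times in PVR. For C1qb, C4b and Cfi the 3 PVR values lay above the 3 Normal values. C1ra, C1rl, C1s1, C2, C3, Cfp, C3ar1, C5ar1, Cd93, Cd55, Cr1l and Clu had lower ratios in PVR than in Normal, for example 3.77 to 4.31 times against 0.443 to 0.539 times for Cfp. The ratio of group means was 1.67 for C1qb, 3.67 for C4b and 4.81 for Cfi. Such ratios depend on the marker. Between group means, single macrophage markers other than Csf1r differed from 5.16-fold (Tmem119) to 73.0-fold (Lyz2). C1qb (42.0-fold) lay within that range, C4b (77.1-fold) just above it and Cfi (105-fold) above it. C3ar1 (17.0-fold), Cd93 (10.3-fold), C3 (9.24-fold) and C5ar1 (7.09-fold), with lower ratios in PVR, also lay within it. The part of other cell types in any of these values was not tested.

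Of 35 further genes of the pathway, listed with earlier results of these data known, 29 had a row and 17 had enough reads. Of these 8 rose and 2 fell (limma), beside 17.9% and 12.9% of all tested genes. Itgam (5, 6 and 1 Normal reads), Megf10 (4, 7 and 2), Itgax and Fcna had enough reads only through the PVR libraries. A difference was thus built into their being tested. In the 4 libraries without Normal replicate 2 and PVR replicate 3, 6 were higher and 2 lower, beside 17.1% and 9.92% of all genes. The subunits of the iC3b receptors, which leukocytes carry, rose most. Itgam stood at 3.87 ± 2.58 in Normal and 248 ± 98.3 in PVR (limma adjusted p = 0.000138, log2 change 5.78, SE 0.54). Itgb2 rose from 36.9 ± 9.48 to 1276 ± 549.8 (log2 change 4.99, SE 0.38). Of the 50-base stretches of Itgam, 66.3% recur in Gm49368. Megf10, for a phagocytic receptor that can bind C1q, rose from 4.14 ± 2.34 to 49.5 ± 16.1, and Calr, for the C1q-binding chaperone calreticulin, from 11550.1 ± 2393 to 17291 ± 1263. Calr fell short of the threshold when Normal replicate 1, Normal replicate 2 or PVR replicate 1 was omitted (limma adjusted p of 0.051, 0.0511 and 0.0509), and when Normal replicate 2 and PVR replicate 3 both were (limma adjusted p = 0.0796). Colec12, for a collectin scavenger receptor, rose from 212 ± 64.6 to 453 ± 62.0. Serping1, for the C1 inhibitor that blocks C1r and C1s, rose from 243 ± 68.8 to 786 ± 131 (limma adjusted p = 0.000711, log2 change 1.72, SE 0.22). Itgax and Fcna, beyond the 8 with the smallest p, were also called higher, but each lost its call in 6 of 19 alternatives. Neither kept it without PVR replicate 1 or without PVR replicate 2, and for Fcna the groups overlapped.

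Scarf1, for a scavenger receptor that can bind C1q, was among the 2 genes that fell. It measured 609, 477 and 382 in Normal and 258, 243 and 294 in PVR, with no overlap (log2 change -0.86, SE 0.18, limma adjusted p = 0.00513). Of the 10 RPE markers 5 were lower in the same libraries and 5 were not called, among them Ttr (262989.7 ± 14031 and 302541 ± 11495) and Tyr (8251 ± 1229 and 8902 ± 425), and their part in the change of Scarf1 was not tested.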

How the data were processed

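Polyadenylated RNA of primary RPE cells was extracted with TRIzol per the labels, with groups and replicate numbers read from the titles. Each table the authors deposited holds 1 normalised signal for every gene symbol, a read count divided by 1 factor per library. This follows from the values themselves, 100% of which were whole multiples of 1 step within 0.001 reads. The submitters' processing notes name mm10 as a build and DESeq2 as a tool, with no further detail. Which aligner, counting program, strand setting and annotation were used is not given in the sources. Recovered totals were 15269983 to 19173187 reads. No libraries were duplicates (chi-square of at least 19.9 per gene for every pair).

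Differences were tested in R 4.3.3 with limma 3.58.1, with trend and robust moderation, after adding 1 to the normalised counts and taking log2, over 15766 genes passing filterByExpr of edgeR 4.0.16 (minimum count 10), with Benjamini-Hochberg adjustment over all of them. DESeq2 1.42.0 and edgeR on recovered reads were alternatives, as were other scalings, pseudocounts and filters, a replicate block and omitted libraries. The test was tried on simulated data. Same-numbered libraries deviated together across groups (r of deviations 0.24, 0.23 and 0.18 for replicates 1 to 3), a pairing seen in the data that no label states. Positions and exon lengths are from GENCODE M21 (GRCm38), promoters from RefSeq (25 of 35 members matched). Names that are dates (26 rows) stayed in the tests. All members were named. Of 35 further complement genes, those called were named, up to 8 by p, except 1 that is not reported here. Members and lists were chosen with earlier results of these data known. Tables and exact intervals were made with scipy 1.17.1, numpy 2.4.6 and pandas 2.3.3 in Python 3.11.15, and figures with matplotlib 3.10.9.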

Additional observations from a re-analysis of the deposited data

How the results depend on the processing

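Of the 19 members called higher, 14 kept direction and call under each of the 19 alternatives, except that C5ar2 was not tested under the filter at 1 CPM. C2, Cfp, Cd55, Cr1l and Clu lost the call under at least 1, each of them against a minimum change of 1.5-fold. Members called higher numbered 17 to 19 and lower 0 to 0, of 25 or 26 tested, when single libraries were left out. All genes called higher in those fits numbered 2193 to 2844, of 16262 to 16419 tested. With the replicate number as a block, 19 members were higher and 0 lower, 3079 and 2249 of all genes were called, and no call of a member changed. Without single libraries, all genes called lower numbered 1307 to 2026 (1307 without Normal replicate 1). A minimum change of 1.5-fold left 1232 genes higher and 249 lower, and 4 and 0 of the other complement genes, since it asks for more than a difference. The uncalled log2 changes of C4a and Cd46 crossed 0: leaving out single libraries gave -0.24 to 0.035 for C4a and -0.26 to 0.25 for Cd46. Cd46 was 0.022 in edgeR, 0.027 in DESeq2, 0.12 without replicate 3 of both groups and 0.046 without the pair Normal replicate 2 and PVR replicate 3, and the cause was not tested. Depth limits Cfb, Cfd, Hc, C6, C9, Masp2, Cr2, Vsig4, C4bp and Csmd1, which were not tested.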

Other observations

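Csmd3, which was not tested, and Ptx3, which limma did not call, were picked after their values were seen. Each had most of its reads in 1 library. Csmd3, for a large neuronal protein with complement-control domains, measured 42.6 in Normal replicate 2 and 0 in the other Normal libraries, and 1.03, 6.83 and 3.78 in PVR. Ptx3, for the C1q-binding pentraxin 3, measured 2498 in PVR replicate 1, 423 in PVR replicate 2 and 165 in PVR replicate 3, against 72.1 to 121 in Normal (log2 change 2.53, limma adjusted p = 0.121). DESeq2 called Ptx3 higher (DESeq2 adjusted p = 0.00599, log2 change 3.4). Of the 17 tested further genes of the pathway, DESeq2 called 9 higher, against 8 in limma. Of all tested genes 18.3% and 17.9% were called higher by these tools.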
